A study of Sus scrofa with 8 samples.

Results

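The 9 genes described here are transcription factors of the muscle lineage: the myogenic regulatory factors MYOD1, MYF5, MYF6 and MYOG, the satellite cell factor PAX7, the homeobox factor SIX4, and the MEF2 factors MEF2A, MEF2C and MEF2D. They were found by symbol among the 23235 genes of the deposited table, and each of the 9 symbols matched 1 row. The samples were poly(A) RNA libraries of the longissimus dorsi, the long back muscle, from Duroc x Landrace x Yorkshire piglets. Weaned piglets 28 days old, 6 per group, were assigned at random to a control group given sterile saline or to a group given melatonin at 5 mg per kg body weight. Both groups ate one basal diet, had 5 days of adaptation, and received 10 mL by gavage each morning for 23 days. The table holds 4 control and 4 melatonin libraries. The labels number the libraries without naming the animals, so p-values measure the spread between these libraries.

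Satellite cells are the stem cells of muscle. They lie beside the fibre, are marked by PAX7, and pass through MYF5 and MYOD1 as they become myoblasts. The basic helix-loop-helix factors MYOD1, MYF5, MYF6 and MYOG bind DNA as dimers with E proteins. MYOG drives terminal differentiation, and MYF6 is the member of the family most abundant in mature fibres. MEF2 factors act with them on the promoters of contractile and metabolic genes and are restrained by class IIa histone deacetylases, while factors of the SIX4 family act upstream of the family in the embryo and on fast-fibre genes in the adult.

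Total counts ran from 53471667 to 60629098 per library. Levels are given as FPKM (fragments scaled to gene length and library size), with means ± SD over 4 libraries. Fold changes are on the log2 scale, positive where melatonin measured higher, with the SE of edgeR's quasi-likelihood test over 15403 genes. Muscle fibre markers were abundant in all libraries, with ACTA1, the skeletal actin, between 49047 and 74673 FPKM. Melatonin replicates 1 and 3 stood apart in connective tissue: the 7 fibroblast markers summed to 4943 and 1634 FPKM there, 561.5 and 548.5 in melatonin replicates 2 and 4, and 396.7 to 784.7 in controls. The 4 tenocyte markers summed to 430.2 and 218.4 FPKM there and to 11.4 to 24.4 in the other 6 libraries. Beside these, 7 of 8 muscle fibre markers had a row and summed to 93790 to 111100 FPKM in controls and 78940 to 102300 after melatonin. The 5 adipocyte markers summed to 218.6, 73.1, 193.5 and 13.7 FPKM in melatonin replicates 1 to 4 and to 21.8 to 125.6 in controls. The 6 macrophage markers summed to 37.4, 31.1, 46.1 and 11.2 FPKM in these melatonin libraries and to 13.8 to 31.2 in controls. Both sums were thus lowest in melatonin replicate 4, below all controls. FABP4, CIDEC, CD68, CSF1R, C1QA and C1QB were each below all controls there, while ADIPOQ, PLIN1, LEP, CD163 and MRC1 were not. FABP4 gave 12.1 of the 13.7 FPKM of the adipocyte sum there. No marker of these lists was at 0 in all libraries, and the part of these cells in the results below was not tested.

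Of the 9 genes, 3 measured higher after melatonin at an unadjusted p under 0.05 (MYF5, MYF6 and SIX4) and 1 lower (MYOD1), and 0 passed after adjustment. Over all genes, 6.11% were higher and 3.36% lower at that unadjusted threshold in edgeR, and 9.47% in either direction. After Benjamini-Hochberg adjustment edgeR called 0 of 15403 genes (0.0%), against 1458 at an unadjusted p under 0.05, and DESeq2 called 67 genes (0.436%), none of them among the 9. At an unadjusted p under 0.05, DESeq2 counted the same number of the 9 as edgeR, 4, against 10.9% of all genes. FPKM did not overlap between the groups for 2 of the 9, MYOD1 below and MYF5 above, against 2.58% of all genes in either direction, 1.1% lower and 1.47% higher. The number of the 9 at an unadjusted p under 0.05 was 1, MYOD1 alone, without control replicate 1, control replicate 4 or melatonin replicate 3. It was 2, MYOD1 and SIX4, without melatonin replicates 1 and 3 together.

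**Figure D1:**
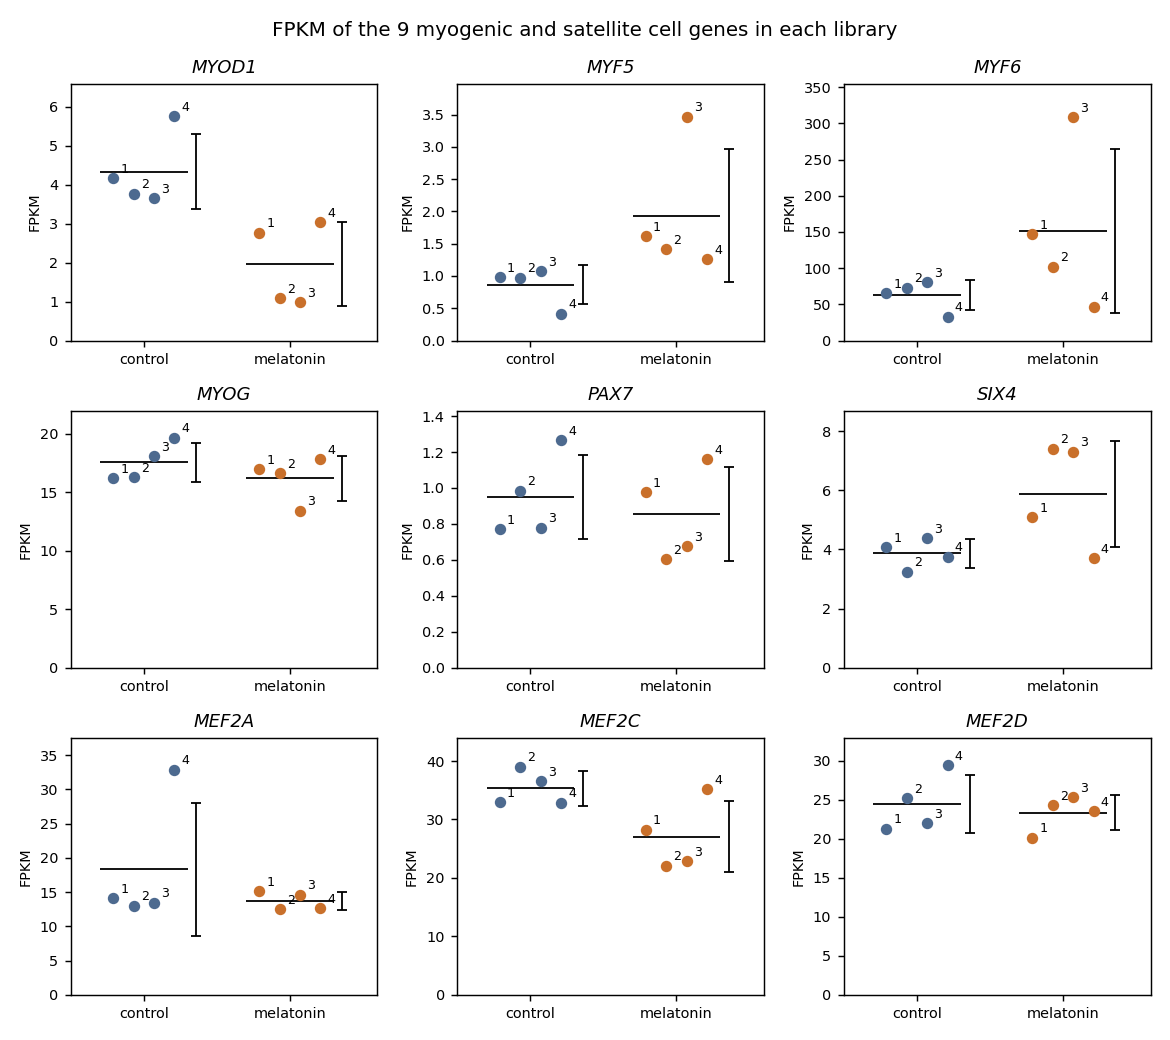
FPKM of each of the 9 genes (vertical axes, from 0) in 4 control and 4 melatonin libraries, numbered by replicate, with the group mean as a line and the SD as a bar. MYOD1 is below all controls in all 4 melatonin libraries, MYF5 is above all controls, and control replicate 4 stands apart for MEF2A at 32.9 FPKM.

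PAX7, the defining factor of satellite cells (ENSSSCG00000034627, chromosome 6, 77161097 to 77267415, Sscrofa11.1), had the lowest mean FPKM of the 9 over all libraries. In controls the mean of MYF5 was lower, at 0.862 against 0.950 FPKM. PAX7 measured 0.769, 0.986, 0.778 and 1.27 FPKM in control replicates 1 to 4 and 0.978, 0.605, 0.678 and 1.16 after melatonin, on 175 to 360 counts per library. The groups overlapped over most of their range, and replicate 4 was the highest of each. Its log2 fold change was -0.22 ± 0.31 (edgeR adjusted p = 0.837). Without melatonin replicates 1 and 3 it was 0.02. In bulk muscle, the number of satellite cells and the PAX7 RNA per cell cannot be told apart.

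MYF5 marks satellite cells and early myoblasts (ENSSSCG00000000937, chromosome 5, 100752890 to 100755494). In controls it measured 0.984, 0.970, 1.08 and 0.416 FPKM, and after melatonin 1.61, 1.41, 3.46 and 1.26. Each melatonin library lay above each control, with melatonin replicate 3 the highest and control replicate 4 the lowest. The gene rested on few reads, 36 to 84 counts in controls and 110 to 276 after melatonin. Means were 0.862 ± 0.301 and 1.94 ± 1.03 FPKM, a difference of 1.00 ± 0.39 on the log2 scale (edgeR adjusted p = 0.501, DESeq2 adjusted p = 0.323). Without melatonin replicate 3 the value was 0.67 and without control replicate 4 it was 0.76. PAX7 and MYF5, both used as satellite cell markers, thus had fold changes of opposite sign, and neither passed the adjusted test.

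MYOD1, which commits cells to the muscle lineage and is also expressed in fast fibres, had the smallest p of the 9 (ENSSSCG00000013375, chromosome 2, 41415775 to 41424435). Control replicates 1 to 4 measured 4.17, 3.77, 3.66 and 5.75 FPKM. Melatonin replicates 1 to 4 measured 2.77, 1.09, 0.988 and 3.03. All 4 melatonin libraries were below the lowest control, and replicates 2 and 3 were well below replicates 1 and 4. On the log2 scale the fold change was -1.20 ± 0.39, a level 2.29-fold lower (edgeR adjusted p = 0.493, DESeq2 adjusted p = 0.122). With each of the 8 libraries left out in turn, the unadjusted p stayed under 0.05 and the edgeR adjusted p ran from 0.0809, without melatonin replicate 4, to 0.850, without melatonin replicate 3. Without melatonin replicates 1 and 3, the libraries rich in connective tissue RNA, the value was -0.93 (edgeR adjusted p = 0.996). Scaled by TMM, edgeR's correction for library composition, the groups did not overlap either.

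The deposited gene model of MYOD1 limits how its level can be set beside those of other genes. Its counts and FPKM imply a length of 8.26 kb, whereas the RefSeq gene of the same assembly spans 1.72 kb, introns included. If its fragments all came from the RefSeq gene, whose exons are shorter than its span, the FPKM of MYOD1 is too low by 4.82-fold or more. A fold change between groups does not depend on this length. Whether the MYOD1 counts behind it include fragments from outside the RefSeq gene was not tested. The ratio of implied length to RefSeq span was 1.83 for MYOG, and below 1 for the other 7 genes.

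MYF6, also called MRF4 and the main factor of the family in grown fibres, was the most abundant of the 9 (ENSSSCG00000026533, chromosome 5, 100762917 to 100764773). Its control values were 65.0, 73.2, 80.8 and 33.1 FPKM, and its melatonin values 147, 102, 309 and 46.6 FPKM. Melatonin replicates 1 to 3 lay above all controls, while melatonin replicate 4 lay below 3 of them. Means were 63.0 ± 20.9 and 151 ± 113 FPKM, so that the SD after melatonin was 74.7% of the mean. This was a difference of 1.04 ± 0.45 on the log2 scale (edgeR adjusted p = 0.521, DESeq2 adjusted p = 0.271). The summed adipocyte and macrophage markers were also higher in melatonin replicates 1 to 3 than in replicate 4. Among controls the macrophage sum was highest, at 31.2 FPKM, in replicate 4, where MYF6 was lowest. The adipocyte sum of controls was highest, at 125.6 FPKM, in replicate 3, where MYF6 was the highest of the controls. The part of these cells in the MYF6 values was not tested. The MYF6 difference was 0.53 without melatonin replicate 3 and 0.32 without melatonin replicates 1 and 3.

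MYF5 and MYF6 are neighbours on one strand of chromosome 5, with 7422 bases between their gene models, and MYF6 lies upstream. MYF6 exceeded MYF5 by 66.1 to 79.7 times in the FPKM of control libraries and by 37.1 to 91.1 times after melatonin. Both genes had their lowest control value in replicate 4 and their highest value in melatonin replicate 3. Whether any MYF5 fragments came from transcripts running on from MYF6 was not tested.

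MYOG, the factor of terminal differentiation (ENSSSCG00000034654, chromosome 9, 113782284 to 113787340), was the steadiest of the helix-loop-helix factors. Controls measured 16.2, 16.3, 18.1 and 19.7 FPKM, and melatonin libraries 16.9, 16.6, 13.4 and 17.8. The groups overlapped, with melatonin replicate 3 alone below all controls. For MYOG the difference was -0.19 ± 0.19 on the log2 scale (edgeR adjusted p = 0.782), and 0.09 without melatonin replicates 1 and 3. The coefficient of variation within groups was 9.42% and 11.8%, against 22.3% and 54.9% for MYOD1.

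**Figure D2:**
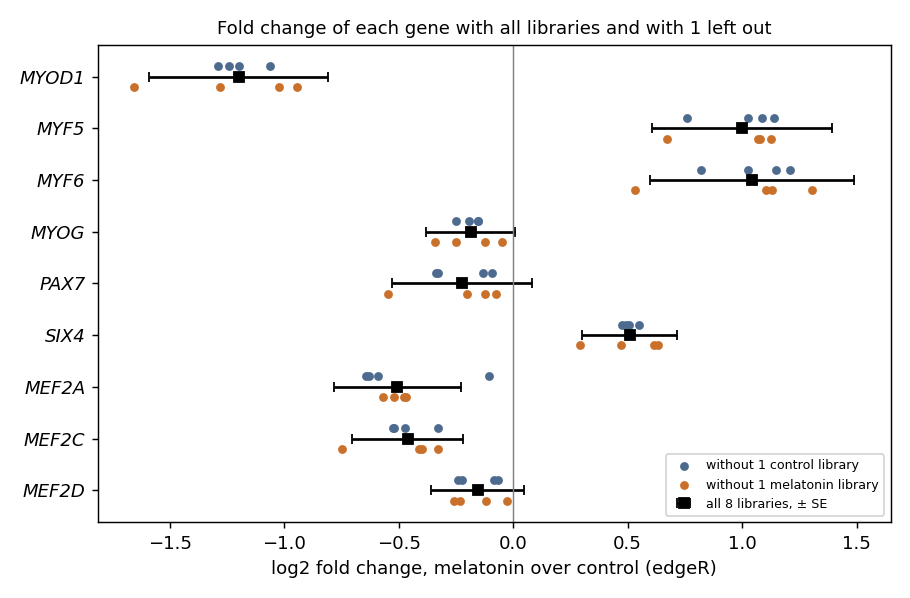
Log2 fold change of melatonin over control for each of the 9 genes from edgeR (horizontal axis), with all 8 libraries (square, ± SE) and with 1 control or 1 melatonin library left out (points). MYOD1 stays between -1.65 and -0.94, MYF6 between 0.53 and 1.30, and MEF2A moves to -0.11 when control replicate 4 is left out.

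Per gene length, MYF6 made up most of the summed FPKM of the 4 helix-loop-helix factors in each library. Its share was 71.8 ± 10.4% in controls and 83.5 ± 11.3% after melatonin, with the lowest share, 56.2%, in control replicate 4 and the highest, 94.5%, in melatonin replicate 3. MYOG took 21.7 ± 7.78% and 13.5 ± 9.20%, MYOD1 5.53 ± 2.87% and 1.82 ± 1.82%, and MYF5 0.979 ± 0.189% and 1.25 ± 0.394%. With lengths capped at the RefSeq gene span, MYOD1 took 18.5 ± 6.86% in controls and 6.86 ± 6.10% after melatonin, and MYF6 52.8 ± 12.6% and 72.2 ± 17.2%. The capped lengths were chosen after seeing the data. The shares are a description and were not tested. MYF6 led in all 8 libraries on the deposited lengths and in 7 on the capped ones, control replicate 4 having 37.0% MYOG and 34.1% MYF6.

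**Figure D3:**
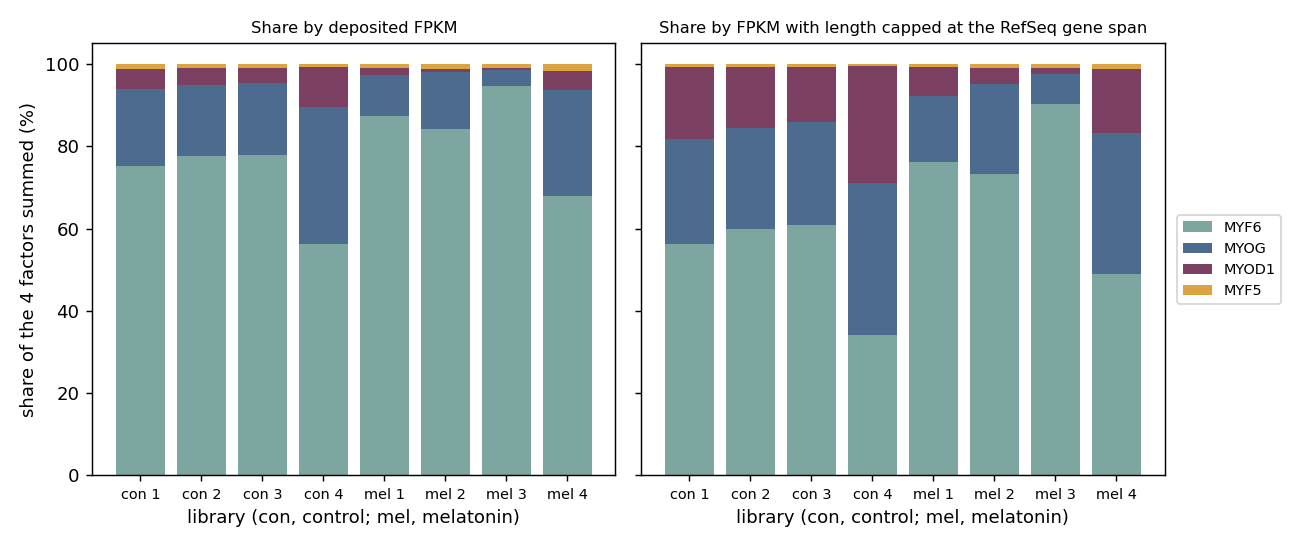
Share of MYF6, MYOG, MYOD1 and MYF5 in their summed FPKM (%, from 0) in each library, on the deposited lengths and with lengths capped at the RefSeq gene span. MYF6 takes 94.5% in melatonin replicate 3 and 56.2% in control replicate 4 on the deposited lengths.

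Across the 8 libraries MYOD1 ran opposite to MYF5 and MYF6. On log2(CPM + 1) with TMM scaling, MYOD1 and MYF6 gave Pearson's r = -0.87 (exact permutation p = 0.00218, adjusted p = 0.0393 over the 36 pairs of the 9 genes, n = 8). Spearman's rho was -0.76 (exact permutation p = 0.0368, adjusted p = 0.120). For MYOD1 and MYF5, r was -0.86 (exact permutation p = 0.00154, adjusted p = 0.0393) and rho -0.90 (exact permutation p = 0.00456, adjusted p = 0.0923). Without melatonin replicates 2 and 3, farthest from the MYOD1 median, the r values were -0.79 and -0.74, and about the group means they were -0.83 and -0.70. These were the only 2 of the 36 pairs with an adjusted Pearson p under 0.05, and 0 had an adjusted Spearman p under 0.05. Libraries were permuted without regard to group, so each permutation p also reflects the difference between control and melatonin. No p was computed about the group means. Groups of 4 were too small for a correlation within each.

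MYF5 and MYF6 gave r = 0.90 (exact permutation p = 0.00910, adjusted p = 0.0737) and rho = 0.71 (exact permutation p = 0.0576, adjusted p = 0.122). Without control replicate 4 and melatonin replicate 3, r was 0.28, so the relation rested on those libraries. MYOD1 and SIX4 gave r = -0.88 (exact permutation p = 0.0123, adjusted p = 0.0737) and rho = -0.88 (exact permutation p = 0.00724, adjusted p = 0.0923), with r = -0.71 without melatonin replicates 2 and 3. The members were chosen with results of these libraries known, so these p-values describe the libraries.

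**Figure D4:**
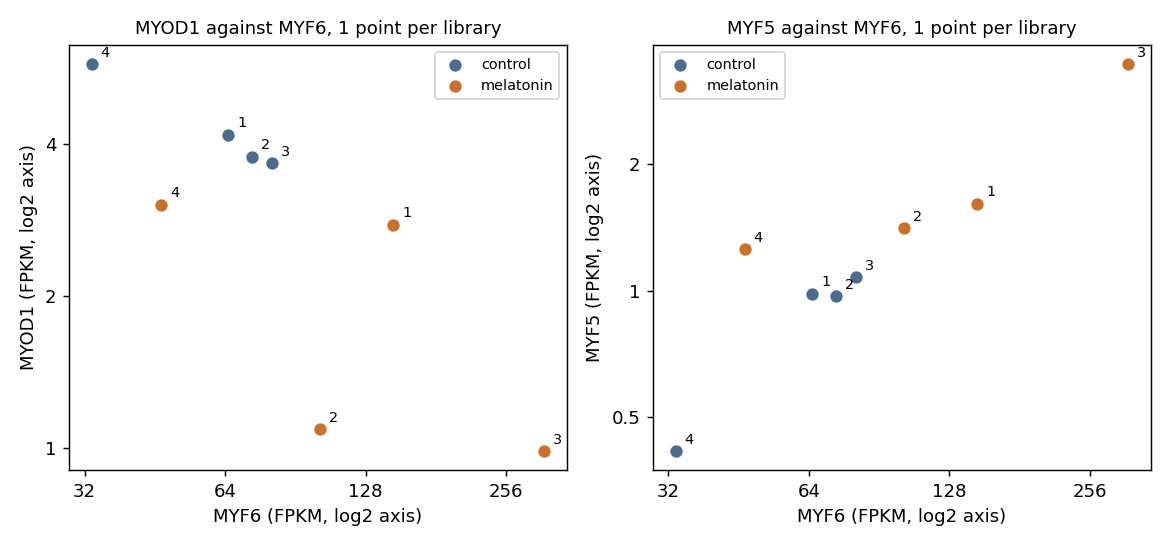
FPKM of MYOD1 (left) and MYF5 (right) against FPKM of MYF6, both on log2 axes, 1 point per library, numbered by replicate. MYOD1 is lowest in melatonin replicate 3, where MYF6 is highest at 309 FPKM, and highest in control replicate 4, where MYF6 is lowest at 33.1 FPKM.

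SIX4, a homeobox factor that acts on the genes of the family (ENSSSCG00000005089, chromosome 1, 189670390 to 189682577), measured 4.08, 3.24, 4.38 and 3.75 FPKM in controls and 5.09, 7.40, 7.31 and 3.70 after melatonin. Melatonin replicates 1 to 3 lay above all controls, and replicate 4, the library lowest in summed adipocyte and macrophage markers, lay among them. The difference was 0.51 ± 0.21 on the log2 scale (edgeR adjusted p = 0.517), and 0.29 without melatonin replicate 2. It was 0.63 without melatonin replicates 1 and 3, the libraries rich in connective tissue markers (edgeR adjusted p = 0.996). That value rested on melatonin replicate 2, at 7.40 FPKM, since replicate 4, at 3.70 FPKM, lay among the controls. The part of connective tissue in the SIX4 difference was not tested.

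Among the MEF2 factors, MEF2C, needed for sarcomere integrity in young muscle, was the most abundant (ENSSSCG00000014149, chromosome 2, 96124168 to 96296810). It measured 32.9, 39.1, 36.5 and 32.8 FPKM in controls and 28.2, 22.1, 22.8 and 35.2 after melatonin. Melatonin replicates 1 to 3 lay below all controls and replicate 4 lay within them. The difference was -0.46 ± 0.24 on the log2 scale (edgeR adjusted p = 0.584), and -0.75 without melatonin replicate 4 (edgeR adjusted p = 0.128). Without melatonin replicates 1 and 3 it was -0.19. On the same strand the MEF2C model overlaps a gene known by its identifier only, at a mean of 2.35 FPKM.

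MEF2A, a MEF2 factor also made in heart and nerve cells (ENSSSCG00000028771, chromosome 1, 138341158 to 138511314), measured 14.1, 13.0, 13.4 and 32.9 FPKM in controls. After melatonin it measured 15.1, 12.5, 14.6 and 12.6. A single library, control replicate 4, stood far above the rest, and the other 7 lay within a narrow band. The log2 fold change of -0.51 ± 0.28 (edgeR adjusted p = 0.598) became -0.11 without that library (edgeR adjusted p = 0.845).

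MEF2D, a MEF2 factor with a muscle-specific splice form (ENSSSCG00000006482, chromosome 4, 93581598 to 93616983) measured 21.3, 25.2, 22.0 and 29.5 FPKM in controls and 20.2, 24.4, 25.3 and 23.6 after melatonin. The groups overlapped, with control replicate 4 again the highest. The estimate was -0.15 ± 0.20 on the log2 scale (edgeR adjusted p = 0.833), and 0.08 without melatonin replicates 1 and 3.

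In mean FPKM the order ran MYF6 (107), MEF2C (31.2), MEF2D (23.9), MYOG (16.9), MEF2A (16.0), SIX4 (4.87), MYOD1 (3.15), MYF5 (1.40) and PAX7 (0.902). With lengths capped at the RefSeq gene span, MYOG came to a mean of 30.9 and MYOD1 to 15.2 FPKM, which placed MYOG between MEF2C and MEF2D, and MYOD1 between MEF2A and SIX4. The positions of MYOG and MYOD1 therefore depend on the gene model. Among neighbours that the lengths did not touch, MYF6 and MEF2C overlapped in controls and were apart after melatonin, and so did MYF5 and PAX7. MEF2A lay above SIX4 in each library of both groups, and MEF2C above MEF2D in controls but not in all melatonin libraries.

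Comparisons with MYOD1 turned with the length. On deposited FPKM, MYOD1 and MYF5 ran from 3.66 to 5.75 and from 0.416 to 1.08 in controls, and overlapped after melatonin at 0.988 to 3.03 and 1.26 to 3.46. On capped lengths MYOD1 ran from 17.6 to 27.7 FPKM in controls and from 4.76 to 14.6 after melatonin, above MYF5 in each library. SIX4 and MYOD1 overlapped in controls and were apart after melatonin on deposited FPKM, with SIX4 the higher. On capped lengths they were apart in controls, with MYOD1 the higher, and overlapped after melatonin. Likewise MEF2D lay above MYOG in each library on deposited FPKM, while on capped lengths MYOG lay above MEF2D in controls and overlapped it after melatonin. MYOG and MEF2A overlapped in both groups on deposited FPKM and in controls alone on capped lengths.

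Genes with the most similar pattern were taken as the 3 highest Pearson correlations over the 8 libraries among 8846 named genes at a mean of at least 1 FPKM, as a description. High and low libraries that these genes share with a member follow largely from this choice. For MYOD1 they were DNAJC5 (0.98), GRIP2 (0.98) and ANKRD52 (0.97). GRIP2 measured 5.30 to 8.24 FPKM in controls and 1.98 to 4.84 after melatonin. For MYF6 they were HP1BP3 (0.97), TINAGL1 (0.96) and CEBPD (0.96), and for MYF5 they were ATF6 (0.99), PTBP3 (0.97) and FBXO21 (0.96). CEBPD, a transcription factor of the C/EBP family, measured 3.92, 3.01, 3.23 and 1.23 FPKM in controls and 13.2, 9.29, 24.8 and 1.97 after melatonin, with the same highest and lowest library as MYF6. The nearest to MEF2C was NR4A1, an immediate early nuclear receptor (0.98), and the nearest to MEF2A was the syntaxin STX4 (0.995), at 8.24 FPKM in control replicate 4 and 3.69 to 4.69 in the other libraries. The control replicate 4 value also set apart the kinase MAPKAPK3, next to STX4 in likeness to MEF2A, at 24.5 FPKM against 8.84 to 10.2.

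Other genes of the same pathways were read from 7 lists. Premyogenic factors and cofactors of the homeobox, EYA and DACH families had 0 of 15 genes at an unadjusted p under 0.05 and a median log2 fold change of 0.17, against 0.01 over all genes tested. The smallest p belonged to LBX1, a homeobox factor of migrating limb muscle precursors, at 1.18 ± 0.662 FPKM in controls and 0.453 ± 0.325 after melatonin (-1.35 ± 0.63), followed by DACH1 (-0.66 ± 0.36). Without melatonin replicates 1 and 3 the median of this list was -0.19.

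Surface and quiescence genes of satellite cells had 3 of 19 higher and 1 lower at an unadjusted p under 0.05, with a median of 0.08. NOTCH2, a receptor of the pathway that holds satellite cells quiescent, measured 1.43 ± 0.422 and 2.56 ± 0.996 FPKM (0.68 ± 0.23, edgeR adjusted p = 0.493). VCAM1, an adhesion molecule of satellite cells and endothelium, measured 5.49 ± 0.946 and 9.41 ± 4.10 FPKM (0.63 ± 0.23, edgeR adjusted p = 0.493). Both were highest in melatonin replicates 1 and 3, and 0 of the list were at that p without those libraries. The 6 satellite cell markers summed to 15.6 to 32.1 FPKM in controls and 15.0 to 24.2 after melatonin. Most of this was CDH15, at 11.5 to 28.5 FPKM in controls and 10.8 to 19.6 after melatonin. Of the 6 markers, 3 had a positive and 3 a negative fold change.

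E proteins and antagonists of helix-loop-helix factors had 3 of 16 higher and 0 lower, with a median of 0.16. ID2, which binds E proteins and keeps them from MYOD1, measured 2.14, 1.13, 1.95 and 1.64 FPKM in controls and 5.70, 1.94, 4.63 and 2.89 after melatonin (1.00 ± 0.27, edgeR adjusted p = 0.493, DESeq2 adjusted p = 0.0972). Melatonin replicate 2 lay among the controls. TWIST1, a repressor of MYOD1 that fibroblasts also express, measured 0.246 ± 0.167 and 0.995 ± 0.647 FPKM (1.77 ± 0.73), and 0 of the list were higher at that p without melatonin replicates 1 and 3, while 1 was lower.

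Partners and regulators of MEF2 split evenly, 13 of 26 on each side, with a median of -0.00 and 1 higher and 2 lower at an unadjusted p under 0.05. HDAC9, a class IIa deacetylase that represses MEF2, measured 0.770 ± 0.232 and 0.437 ± 0.229 FPKM (-0.93 ± 0.31), and TEAD4, a factor that shares targets with MEF2 and MYOD1, measured 6.44 ± 1.36 and 4.64 ± 0.680 FPKM (-0.55 ± 0.23). Both had an edgeR adjusted p above 0.05, at 0.493 and 0.517. Of 19 muscle genes known to respond to MEF2 or to E-box factors, 16 had a negative fold change, against 7538 of all 15403 genes tested. The median of the 19 was -0.21, and 1 was at an unadjusted p under 0.05. That gene was PPARGC1A, the coactivator of mitochondrial biogenesis (1.65 ± 0.227 and 1.15 ± 0.422 FPKM, -0.65 ± 0.24). KLHL40, a stabiliser of thin filaments, followed (-0.52 ± 0.24). The median of these 19 was 0.08 without melatonin replicates 1 and 3.

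**Figure D5:**
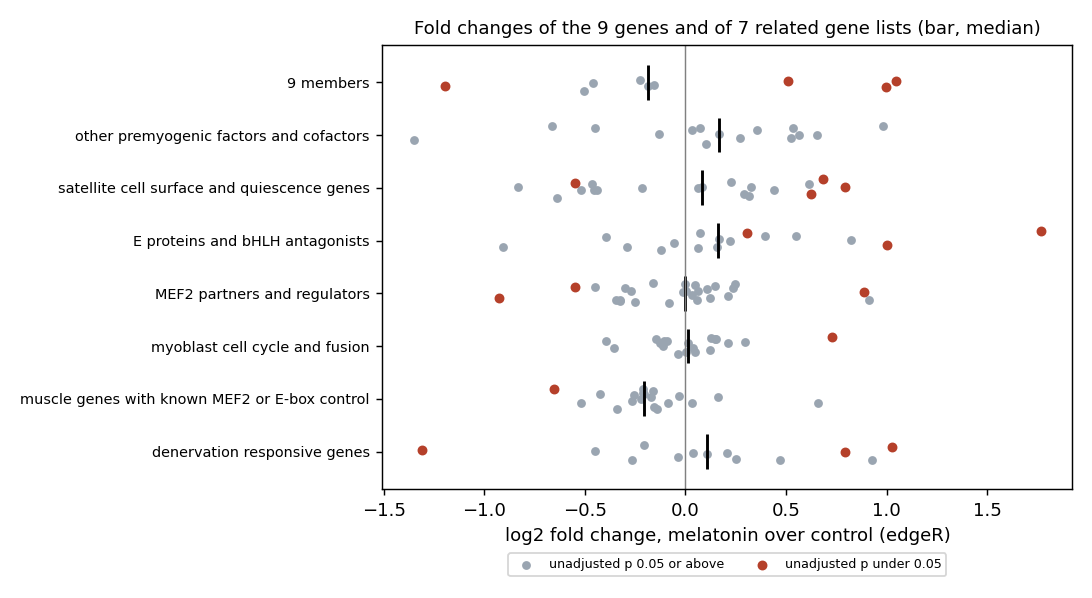
Log2 fold change of melatonin over control from edgeR (horizontal axis) for the 9 genes and the genes of 7 related lists, 1 point per gene, spread vertically at random for legibility, with the list median as a bar and genes at an unadjusted p under 0.05 in red. The 9 genes have a median of -0.19 and spread from -1.20 to 1.04, while the list medians lie between -0.21 and 0.17.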

How the data were processed

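Poly(A) RNA was sequenced as dUTP libraries, per the labels' protocols. The authors deposited raw counts per gene and FPKM values, per the file headers, with 1 column of each per library and 0 value columns unmapped. Per the submitters' processing notes, the tools included DESeq2, FastQC and StringTie, with the genome build Sscrofa11.1. For the aligner, annotation release and strand setting the sources used here give nothing. In 3458 genes with large counts, count over FPKM was a gene constant times a library constant within 0.234%. Each gene's length was computed from that ratio and the total count. No pair of libraries was a duplicate (lowest chi-square per degree of freedom 53.2).

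Genes were kept at a mean count of at least 10 over the 8 libraries (15403 genes). All 9 members passed. A mean FPKM of 1 would have dropped PAX7 and kept MYF5 through its melatonin values. The test was edgeR's legacy quasi-likelihood F test (edgeR 4.0.16 under R 4.3.3) on TMM-scaled counts (factors 0.839 to 1.22), with group as the only term and adjusted p under 0.05 as the threshold. Common dispersion corresponded to a biological coefficient of variation of 38.1%. The SE is the log2 fold change divided by the root of F. The test was tested on simulated data. Correlations were computed in SciPy 1.17.1 (Python 3.11.15, pandas 2.3.3, NumPy 2.4.6) with exact permutation p-values over all 40320 pairings, and plots Matplotlib 3.10.9. RefSeq spans came from the Sscrofa11.1 gene table.

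Alternatives were RLE, upper-quartile and no scaling, a mean FPKM of 1 and no filter, the bias-adjusted test, DESeq2 1.42.0, limma 3.58.1 on log2(FPKM + 1) and log2(FPKM + 0.1), a replicate block, each library left out, and melatonin replicates 1 and 3 left out. Members, lists and the left-out pair were chosen with earlier results of these data known. Named genes are the 9 members, up to 4 called genes of each list (if none was called, its 2 lowest p-values), and the 3 most similar genes of each member. Single cell type markers are also named beside their sums. In the lists SDC4, NOTCH1, MKI67, MB, RAPSN, MYH2 and S100B were not analysed here.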

Additional observations from a re-analysis of the deposited data

Results flagged for a closer look

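A gap check compared the highest and lowest library of each group with its neighbour, over 26 groups of 4 values (FPKM of the 9 genes and the shares of the 4 helix-loop-helix factors). Chance sets about 1 in 20 such groups apart if they are independent, and here it was 5 of 26. These groups were not independent: the shares come from FPKM values checked here, and a fall in one share raises the others. The number was therefore not tested against that rate. Control replicate 4 accounted for 4 of the 5. MEF2A measured 32.9 FPKM there, against 13.0 to 14.1 in the other controls. MYF5 measured 0.416 FPKM there, against 0.970 to 1.08. The share of MYF6 was 56.2% there, against 75.3 to 78.0%, and that of MYOG was 33.3%, against 17.3 to 18.8%. The remaining value was MYF5 at 3.46 FPKM in melatonin replicate 3, against 1.26 to 1.61 in the other melatonin libraries.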

How the results depend on the processing

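The number of genes called was 0 in edgeR and limma under each alternative and 67 in DESeq2, which called none of the 9. Of 170 alternative values of the 9 genes, 167 kept their sign and stayed short of the adjusted threshold. The other 3 changed sign when melatonin replicates 1 and 3 were left out: MYOG to 0.0909, PAX7 to 0.0219 and MEF2D to 0.0772. The number of the 9 at an unadjusted p under 0.05, 4 with all libraries, was 2 without that pair and ranged from 1 to 5 with single libraries left out. In limma it was also 4, with MEF2C in place of MYF6. The MYOD1 share, 3.72 percentage points lower after melatonin on deposited FPKM, differed by -11.8 points on counts and -11.6 points with lengths capped at the RefSeq span, alternatives that differ from the first in gene length alone. With no scaling, the median of all genes was 0.12 on the log2 scale. The split of genes at an unadjusted p under 0.05 was then 972 higher and 225 lower, and 814 and 622 with upper-quartile scaling, against 941 and 517, and no member changed sign under either. The labels do not say whether library numbers pair the samples. Deviations from group means correlated at 0.147, 0.082, 0.119 and -0.036 for same-numbered libraries and at -0.221 to 0.277 for the other pairs. The same-numbered values thus lay within the range of the other pairs. With 4 libraries per group they cannot settle whether the samples were paired. With the replicate block, 0 genes were called and 4 members were at an unadjusted p under 0.05. MYOD1 was at -1.39 ± 0.28 and MYF6 at 0.92 ± 0.23, against -1.20 ± 0.39 and 1.04 ± 0.45 without the block. The SE of each of the 9 genes was smaller with the block. Depth limited MYF5 and PAX7 most, with as few as 36 and 175 counts.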

Other observations

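Genes of the myoblast cell cycle and of fusion had 1 of 19 at an unadjusted p under 0.05 and a median log2 fold change of 0.01, or 0.13 without melatonin replicates 1 and 3. That gene was CDKN1B, an inhibitor of cyclin-dependent kinases, at 24.3, 20.9, 25.4 and 22.9 FPKM in controls and 33.9, 54.2, 58.0 and 21.6 after melatonin (0.73 ± 0.26, edgeR adjusted p = 0.493). Its order among melatonin libraries matched that of SIX4 in that replicates 2 and 3 were highest and replicate 4 lay below all but 1 control. RB1, the retinoblastoma protein gene, had the next smallest p (0.12 ± 0.13).

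Denervation-responsive genes, some of which MYOG regulates in muscle without nerve supply, had 2 of 13 higher and 1 lower at that p. Their median was 0.11, or -0.04 without melatonin replicates 1 and 3. RUNX1, a transcription factor of denervated fibres, measured 0.452 to 0.714 FPKM in controls and 1.51, 0.560, 2.57 and 0.488 after melatonin (1.03 ± 0.41), highest in the libraries rich in connective tissue markers, replicates 1 and 3, whose part in the result was not tested. CHRNE, the adult subunit of the acetylcholine receptor, lay below all controls in each melatonin library (-1.31 ± 0.25, edgeR adjusted p = 0.493, DESeq2 adjusted p = 0.00441). Among the genes most similar to SIX4 over the 8 libraries were BRD8 (r = 0.99), MCCC1 (0.99) and KDM6A (0.98), each highest in melatonin replicates 2 and 3. For PAX7 they were SERPINB6 (0.97), IGSF3 (0.96) and ANKRD40 (0.96), for MYOG LSM12 (0.98), ANO1 (0.97) and SPTB (0.97), and for MEF2D RNF11, SPATA2 and CAMK2B (each 0.99).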
